A study of Homo sapiens with 10 samples.

Results

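Genes of bone morphogenetic protein (BMP) signalling and their ID targets were measured in an ovarian cancer line that survived or adapted to a PARP inhibitor. The 10 genes were chosen by name from knowledge of the pathway, with earlier results of these data known. They are the targets ID1, ID2, ID3 and ID4, the ligands BMP4 and BMP7, the receptors BMPR1A and BMPR2, and the inhibitors SMAD6 and BAMBI. All 10 were among the 19893 genes of the deposited matrix, and all 10 passed the filter on low counts that left 13330 genes for testing. Single-cell RNA-seq was made from Kuramochi, a human epithelial line of high-grade serous ovarian cancer with a mutated BRCA2 gene, and every condition is of that single line. Persister cells at 10 µM and at 320 µM were exposed to olaparib, which inhibits the DNA repair enzyme PARP1, for 9 days. Adapted cells at 10 µM and at 320 µM were populations labelled as resistant to olaparib at the same doses, and control cells were untreated. Hashtag antibodies marked the conditions before mixing, so that both pools held cells of all 5 conditions. The labels give neither the length of adaptation nor whether the adapted populations were clones, and nothing in them makes the pools separate cultures.

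BMP ligands are secreted dimers that bring type I and type II serine/threonine kinase receptors together, and the activated type I receptor phosphorylates SMAD1, SMAD5 and SMAD9, which enter the nucleus with SMAD4. The ID genes are classical direct targets of this pathway. ID proteins lack a DNA-binding domain and dimerize with basic helix-loop-helix (bHLH) transcription factors, which keeps those factors off DNA, and BMP ligands and ID proteins are well studied in ovarian cancer.

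The sequences upstream of the ID genes are shown because the 4 genes are the pathway's usual targets and their levels are compared throughout. RefSeq windows on GRCh38.p14 matched 9 of the 10 genes, and BMP7 had no entry. Each line gives the 250 bases before the RefSeq gene start, 5′ to 3′ on the gene's strand, with capitals marking GTCT or its reverse complement AGAC, the core letters that SMAD3 and SMAD4 are known to contact. The ID1 window is chr20:31605039-31605288 (plus strand), ID2 is chr2:8681806-8682055 (plus), ID3 is chr1:23559502-23559751 (minus) and ID4 is chr6:19837120-19837369 (plus).
ID1: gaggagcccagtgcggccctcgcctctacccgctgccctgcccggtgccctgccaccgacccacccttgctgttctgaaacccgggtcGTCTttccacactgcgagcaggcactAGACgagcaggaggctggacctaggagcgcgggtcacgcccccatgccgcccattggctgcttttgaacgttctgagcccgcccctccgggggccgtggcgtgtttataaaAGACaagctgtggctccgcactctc
ID2: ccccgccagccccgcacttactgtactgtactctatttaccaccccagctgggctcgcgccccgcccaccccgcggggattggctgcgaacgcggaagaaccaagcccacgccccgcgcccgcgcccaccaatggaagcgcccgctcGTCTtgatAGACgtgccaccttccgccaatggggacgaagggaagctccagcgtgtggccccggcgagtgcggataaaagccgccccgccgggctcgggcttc
ID3: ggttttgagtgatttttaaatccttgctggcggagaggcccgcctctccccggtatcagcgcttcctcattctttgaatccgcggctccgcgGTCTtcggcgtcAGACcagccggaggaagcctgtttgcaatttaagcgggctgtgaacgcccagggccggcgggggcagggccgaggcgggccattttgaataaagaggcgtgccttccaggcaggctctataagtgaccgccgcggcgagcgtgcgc
ID4: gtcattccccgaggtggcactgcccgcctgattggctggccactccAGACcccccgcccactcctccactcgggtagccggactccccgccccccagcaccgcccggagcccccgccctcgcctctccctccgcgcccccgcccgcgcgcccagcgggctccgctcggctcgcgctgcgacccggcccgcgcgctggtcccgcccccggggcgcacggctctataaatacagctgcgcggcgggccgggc
The windows held 3 such matches for ID1, 2 for ID2, 2 for ID3 and 1 for ID4, and 77.6% of all 27305 windows of that length held at least 1. A longer motif, GGCGCC, reads the same on both strands and is known from BMP-responsive elements bound by SMAD1 and SMAD5. It had no match in these 4 windows, and bases farther from the gene start were not searched. GGCGCC was in 16.1% of all windows, among them those of BMP4 with 1 match, BMPR2 with 1 and BAMBI with 3. The BMP4 window, chr14:53955051-53955300 (minus strand), is shown with GGCGCC in capitals because BMP4 was the ligand that was higher in adapted cells.
BMP4: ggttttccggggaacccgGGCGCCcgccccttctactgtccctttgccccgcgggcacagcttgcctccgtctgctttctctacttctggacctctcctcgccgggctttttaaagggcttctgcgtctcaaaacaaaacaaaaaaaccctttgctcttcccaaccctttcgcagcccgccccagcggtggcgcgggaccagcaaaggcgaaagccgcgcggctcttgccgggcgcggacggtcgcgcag
These matches are descriptions of letters and do not locate bound sites. Only the first window listed for each gene was used. By the GENCODE 29 annotation, the windows of ID2, ID3 and BMP4 lie inside the spans of these genes. The ID1 window reaches just into the span of ID1. On GRCh38 in GENCODE 29, antisense genes overlap ID2 (ID2-AS1), ID4 (AL022068.1) and BMP7 (BMP7-AS1). Whether counting used strand is not given in the sources used here, and none of the 3 is in the matrix.

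The 10 sums of unique molecular identifiers (UMIs, each marking 1 captured RNA molecule) over the cells of a condition and pool held 3532281 to 23189583 UMIs from 263 to 2435 cells. The fewest cells were 10 µM persisters. Levels below are in CPM, the UMI count of a gene scaled to the size of its sum with trimmed mean of M-values factors, where 3 UMIs in a sum, taken as the floor, were worth 0.129 to 0.849 CPM, and no sum of any of the 10 genes was at the floor. Unless another fit is named, adjusted p-values are Benjamini-Hochberg values of edgeR's quasi-likelihood test over all 13330 genes, called at under 0.05, and n is 2 pools per condition. Such p-values rest on the spread of 2 pools, and that spread may be technical. Of 13800 cells, 13 barcodes occurred in both pools. KRT8 and KRT18, keratins of simple epithelia, and PAX8, a factor of the tubal and ovarian serous lineage, were above the floor in every condition, whereas CDH1 (E-cadherin) reached at most 2.64 CPM in any sum. The 10 epithelial and serous markers summed to 1236 to 1366 CPM in 320 µM adapted cells, against 4496 to 4658 CPM in control cells. All 10 were above the floor in 10 µM persister and control cells, but only 8 in 320 µM persister cells and both adapted populations. The 8 leukocyte markers, with CD3E at 0 throughout, summed to 1.46 to 1.48 CPM in control cells. They summed to 21.9 to 24.2 CPM in 10 µM persister and 3.38 to 4.70 CPM in 320 µM persister cells. Adapted cells had 8.16 to 8.83 CPM at 10 µM and 17.9 to 19.0 CPM at 320 µM. At most 3 of the 8 were above the floor in any condition. The 8 fibroblast markers summed to 230 to 242 CPM in 10 µM adapted cells, with 7 above the floor. In 320 µM adapted cells they summed to 122 to 128 CPM, with 4 above it. Persister cells gave 33.3 to 34.6 CPM at 10 µM and 34.5 to 39.7 CPM at 320 µM. In both control sums they gave 37.4 CPM, with 2 above it.

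Against control, the 10 genes were called about as often as genes in general. In 10 µM persister cells 6 of the 10 were called, 1 higher and 5 lower, where 56.6% of all tested genes were called, 27.3% higher and 29.3% lower. In 320 µM persister cells the count was 6, 3 higher and 3 lower, against a background of 54.6% (26.3% higher, 28.3% lower). In 10 µM adapted cells it was 6, 2 higher and 4 lower, against 67.1% (33.7% higher, 33.4% lower). In 320 µM adapted cells it was 9, 6 higher and 3 lower, against 74.5% (37.6% higher, 36.9% lower). The counts were thus near the background. The median log2 change of the 10 was -0.88 in 10 µM persister cells, -0.13 in 320 µM persister cells, -0.23 in 10 µM adapted cells and 0.17 in 320 µM adapted cells, where the medians of all tested genes were -0.03, -0.01, 0.0048 and 0.0091.

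**Figure D1:**
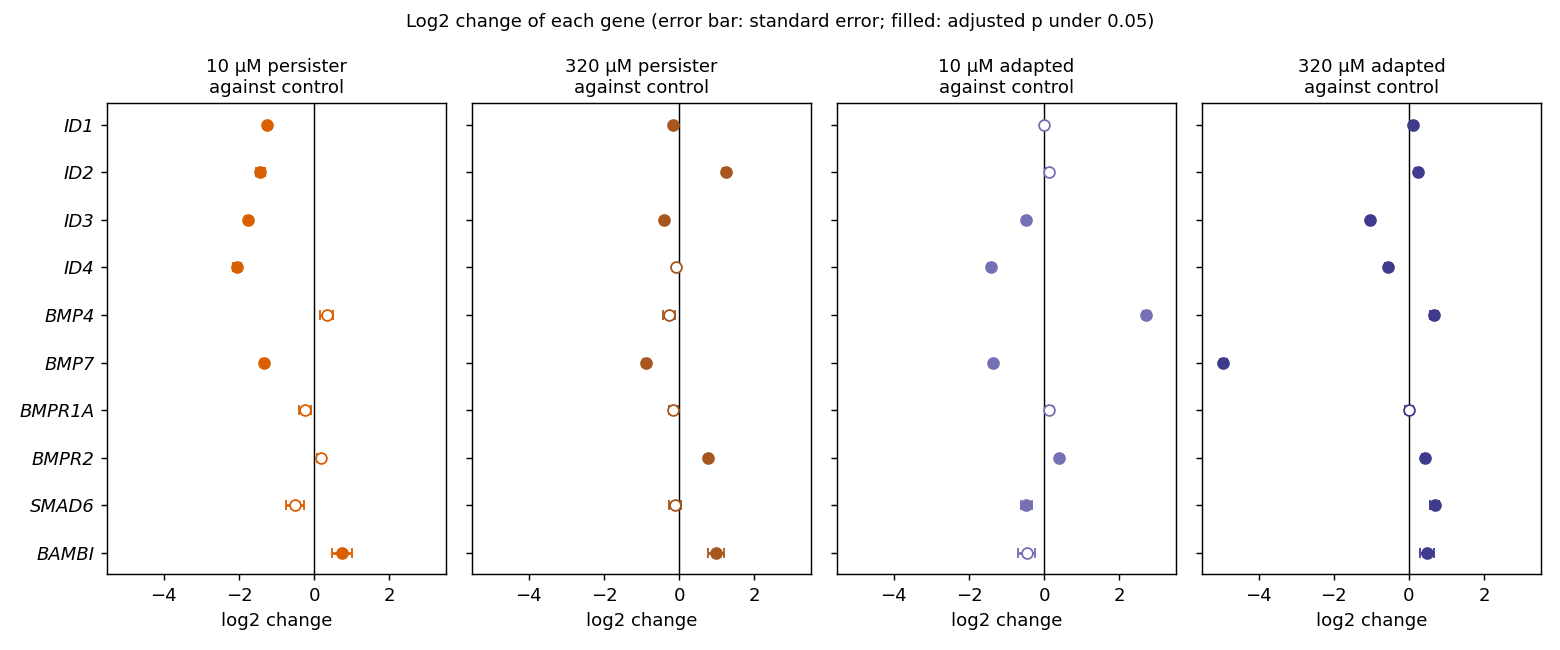
Log2 change of each gene against control cells (x axis) for the 4 olaparib conditions; points are fitted values, bars are standard errors and filled points have an adjusted p under 0.05. All 4 ID genes lie left of 0 in 10 µM persister cells, BMP4 lies at 2.73 in 10 µM adapted cells, and BMP7 lies at -4.94 in 320 µM adapted cells.

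All 4 ID genes fell in 10 µM persister cells, and in each other olaparib condition at least 1 of them did not. In 10 µM persister cells ID1 was at 0.423 times its control level, ID2 at 0.372 times, ID3 at 0.294 times and ID4 at 0.241 times. In 320 µM persister cells ID1 and ID3 were lower by smaller amounts, ID2 was higher, and ID4 was not called.

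ID1, the best studied BMP target of the family, had 664 and 607 CPM in 10 µM persister cells, 1392 and 1295 CPM in 320 µM persister cells, 1458 and 1548 CPM in 10 µM adapted cells, and 1584 and 1667 CPM in 320 µM adapted cells, against 1532 and 1474 CPM in control cells. The 10 µM persister sums stood far below the other 8, which lay between 1295 and 1667 CPM, and 10 µM adapted and control sums overlapped. The log2 change against control was -1.24 (SE 0.05, adjusted p = 1.93e-17) in 10 µM persister cells. It was -0.16 (SE 0.05, adjusted p = 0.0041) in 320 µM persister cells, a call lost without the second 320 µM persister pool (adjusted p = 0.155) or the first control pool (adjusted p = 0.079). In 10 µM adapted cells it was 0.00014 (SE 0.05, adjusted p = 0.999). In 320 µM adapted cells it was 0.11 (SE 0.05, adjusted p = 0.027), and -0.11 (adjusted p = 0.021) when scaled by library totals alone, so its direction there depends on the scaling. The call was also lost with DESeq2 (adjusted p = 0.071), among cells on a deposited list named g1 (0.154), and without the second 320 µM adapted pool (0.230) or the second control pool (0.217).

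ID2, which binds the bHLH E proteins and is known as an inhibitor of differentiation in many lineages, went in opposite directions at the 2 persister doses. It had 18.3 and 23.8 CPM in 10 µM persister cells, 148 and 120 CPM in 320 µM persister cells, 60.9 and 63.2 CPM in 10 µM adapted cells, and 68.2 and 65.6 CPM in 320 µM adapted cells, against 56.6 and 57.2 CPM in control cells. Both 320 µM persister sums were above all others and both 10 µM persister sums below all others, while the adapted sums stood just above control. Against control, the log2 change was -1.43 (SE 0.12, adjusted p = 3.42e-09) in 10 µM persister cells and 1.24 (SE 0.08, adjusted p = 3.28e-11) in 320 µM persister cells. At 320 µM the persister level was 6.35 times the 10 µM persister level (log2 2.67, SE 0.12, adjusted p = 8.86e-14). The adapted differences from control were small, 0.13 (SE 0.08, adjusted p = 0.164) at 10 µM and 0.23 (SE 0.08, adjusted p = 0.010) at 320 µM. The 10 µM value passed the threshold among listed cells alone (0.35, adjusted p = 0.039), with only the compared sums (0.13, adjusted p = 0.027) and with thinned sums (0.29, adjusted p = 0.0495). At 320 µM the value was 0.0075 (adjusted p = 0.933) with library totals alone and missed the threshold under 5 alternatives, among them leaving out the first 320 µM adapted pool (adjusted p = 0.088) or the first control pool (0.055).

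ID3, usually expressed with ID1, was highest in control cells. It had 222 and 210 CPM in 10 µM persister cells, 591 and 529 CPM in 320 µM persister cells, 491 and 566 CPM in 10 µM adapted cells, and 348 and 366 CPM in 320 µM adapted cells, against 727 and 739 CPM in control cells. Every olaparib sum was below both control sums, 320 µM persister and 10 µM adapted sums overlapped, and the others stood apart. The log2 change against control was -1.76 (SE 0.07, adjusted p = 3.50e-11) in 10 µM persister, -0.39 (SE 0.06, adjusted p = 1.55e-04) in 320 µM persister, -0.47 (SE 0.06, adjusted p = 1.50e-05) in 10 µM adapted and -1.04 (SE 0.06, adjusted p = 2.33e-09) in 320 µM adapted cells. With cells of the deposited g1 list alone, the 320 µM persister and 10 µM adapted values became -0.22 (adjusted p = 0.222) and -0.29 (adjusted p = 0.101).

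ID4, which is known to differ from the other ID proteins in its partners, had 17.8 and 15.1 CPM in 10 µM persister cells, 61.3 and 68.8 CPM in 320 µM persister cells, 25.3 and 26.2 CPM in 10 µM adapted cells, and 43.4 and 48.6 CPM in 320 µM adapted cells, against 66.6 and 70.0 CPM in control cells. Only 320 µM persister and control sums overlapped, and the order from the bottom was 10 µM persister, 10 µM adapted and 320 µM adapted. Both 10 µM conditions were thus the lowest. The log2 change against control was -2.05 (SE 0.11, adjusted p = 4.39e-16) in 10 µM persister cells and -1.41 (SE 0.07, adjusted p = 3.26e-16) in 10 µM adapted cells. It was -0.57 (SE 0.07, adjusted p = 1.30e-08) in 320 µM adapted cells and -0.07 (SE 0.07, adjusted p = 0.426) in 320 µM persister cells.

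**Figure D2:**
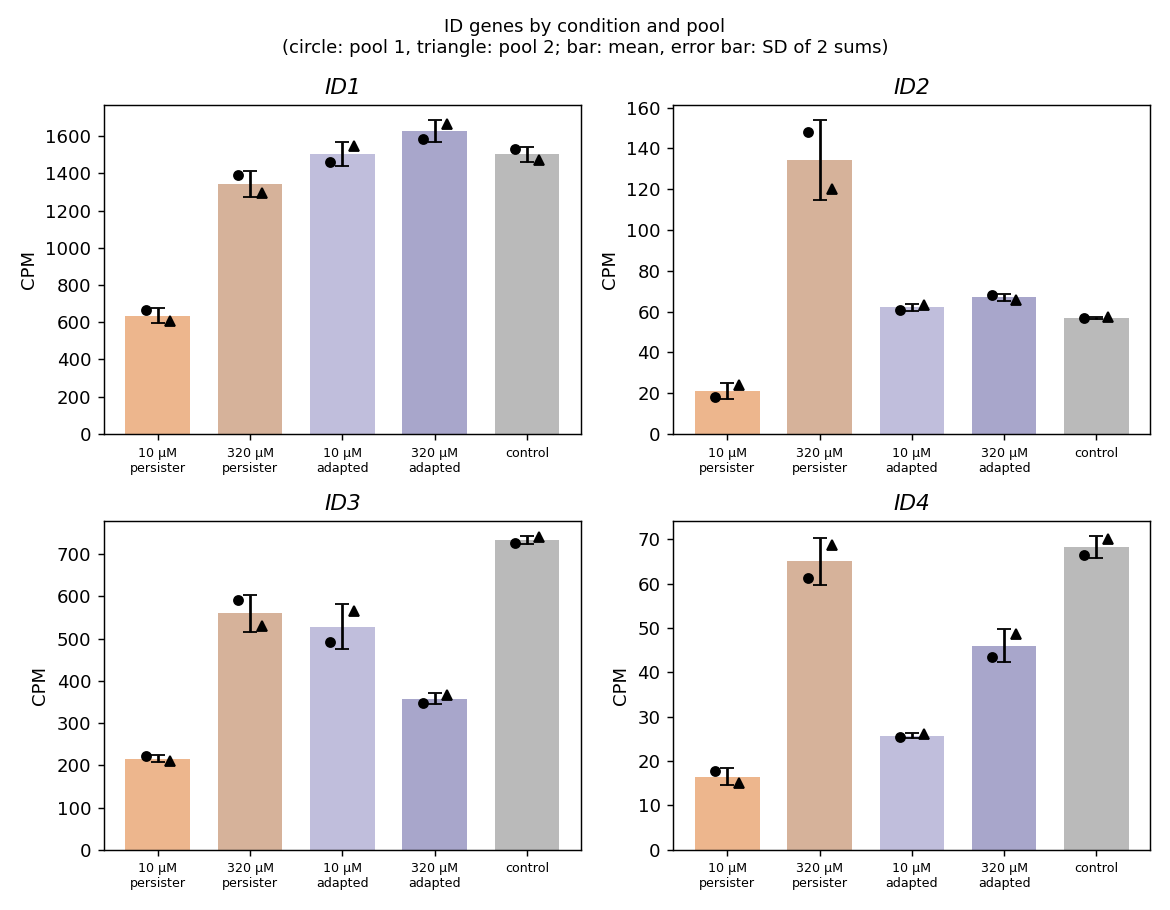
CPM (y axis, linear from 0) of ID1, ID2, ID3 and ID4 in the 5 conditions; circles and triangles are the sums of pool 1 and pool 2, bars their mean and error bars the SD. The 10 µM persister bar is the lowest for every ID gene, and ID2 averaged 134 ± 19.6 CPM in 320 µM persister cells, against 56.9 ± 0.409 CPM in control cells (SD, n = 2).

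Persister cells held more UMIs than the others, with medians of 12100 and 15213 UMIs per cell at 10 µM and 11155 and 13035 at 320 µM, against 8539 and 10000 in control cells, so counts per cell are given beside the scaled levels. ID1 gave 9.09 ± 0.722 UMIs per cell in 10 µM persister cells and 15.2 ± 1.34 in control cells (SD, n = 2). ID2 gave 1.72 ± 0.0249 UMIs per cell in 320 µM persister cells and 0.576 ± 0.0706 in control cells. ID4 gave 0.848 ± 0.180 in 320 µM persister cells and 0.692 ± 0.104 in control cells. ID1 gave 17.4 ± 1.42 UMIs per cell in 320 µM persister cells, above control per cell although its CPM was below control.

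In a sum, fewer cells with an RNA and less of it per cell cannot be told apart. Cells were also thinned to 3000 UMIs each, leaving out 207 shallower cells, to give shares at equal depth. An ID1 UMI was then found in 68.9% (95% Wilson interval 63.1 to 74.1) and 66.4% (60.2 to 72.1) of 10 µM persister cells, against 94.6% (93.6 to 95.4) and 93.6% (92.5 to 94.6) of control cells. Unthinned, these shares were 85.7% and 90.1% of 10 µM persister cells, against 99.0% and 98.9% of control cells. The median thinned cell had 1 ID1 UMI in both 10 µM persister pools and 4 in both control pools, while the 90th percentile was 6 in 10 µM persister cells, against 10 and 9 in control cells. The lower sum thus came with a lower share of cells with a UMI and a lower median. A lower mean alone can lower both, so they do not tell fewer expressing cells from less RNA per cell. Intervals cover counting error only.

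ID2 was detected in 4.76% and 5.88% of thinned 10 µM persister cells and in 31.8% and 29.01% of thinned 320 µM persister cells, against 16.4% in both control pools. Unthinned shares were 16.7% and 22.4% at 10 µM and 62.7% and 61.4% at 320 µM, against 34.6% and 37.5% in control cells. The thinned share was 14.1% and 14.0% in 320 µM adapted cells, below control although the CPM was above it, and no order is read from that share. No condition lacked an ID RNA, so the cells give no level of free RNA for these genes beyond the lowest share in each pool.

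ID1 and ID3 were found together within cells. An ID3 UMI was present in 52.1% and 50% of thinned 10 µM persister cells with an ID1 UMI and in 25.9% and 17.5% of those without, and the same order held in all 10 sums. In control cells the shares were 78.3% and 79.1% with an ID1 UMI and 48.1% and 55.1% without. The Spearman correlation of the 2 genes over cells of a sum was 0.27 to 0.39, a weak value in sparse counts of cells that share a library. Across the 10 sums, whose points share 2 pools, the Pearson correlation of log2(CPM + 1) between pairs of ID genes ran from 0.70 for ID2 with ID3 to 0.78 for ID1 with ID3.

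Among 5443 genes of at least 20 CPM on average, those most like each ID gene over the 10 sums by the same measure were SLC25A3 (r = 0.994), COX7C (0.993) and CPNE3 (0.987) for ID1, and TTC3 (0.982), C1orf123 (0.975) and AIG1 (0.971) for ID2. For ID3 they were PRPF8 (0.988), IARS2 (0.986) and DYNC2H1 (0.985), and for ID4 GOLM1 (0.988), FARP1 (0.983) and TMEM177 (0.977). No ID gene was among the 3 closest to another.

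The 2 ligands moved apart in adapted cells: BMP4 was highest at 10 µM and BMP7 was lowest at 320 µM. BMP4, a ligand that signals through BMPR1A and BMPR1B with BMPR2, had 10.6 and 17.1 CPM in 10 µM persister cells, 9.52 and 8.85 CPM in 320 µM persister cells, 69.1 and 77.5 CPM in 10 µM adapted cells, and 18.2 and 17.0 CPM in 320 µM adapted cells, against 9.99 and 12.1 CPM in control cells. Both 10 µM adapted sums were far above all others, and the 10 µM persister sums, which differed most between pools, overlapped control. The 10 µM adapted level was 6.62 times control (log2 2.73, SE 0.10, adjusted p = 7.94e-17) and the 320 µM adapted level 1.59 times control (log2 0.67, SE 0.12, adjusted p = 1.93e-05). The persister values, 0.33 (SE 0.18, adjusted p = 0.117) at 10 µM and -0.27 (SE 0.15, adjusted p = 0.1497) at 320 µM, were not called. Without the first 10 µM persister pool the 10 µM value became 0.63 (adjusted p = 0.0077), and without the second it became -0.07 (adjusted p = 0.824). Without the second control pool it was 0.47 (adjusted p = 0.036). The 320 µM value was -0.39 (adjusted p = 0.049) without the first control pool and -0.50 (adjusted p = 0.015) among listed cells alone.

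BMP7, which signals through type I receptors including ACVR1 and is known to induce ID genes, had 38.7 and 48.8 CPM in 10 µM persister cells, 61.1 and 58.4 CPM in 320 µM persister cells, 41.6 and 45.1 CPM in 10 µM adapted cells, and 3.13 and 4.01 CPM in 320 µM adapted cells, against 110 and 111 CPM in control cells. Control sums were above all others, and 320 µM adapted sums were below all others by a wide gap. The log2 change against control was -1.33 (SE 0.09, adjusted p = 4.95e-14) in 10 µM persister, -0.88 (SE 0.07, adjusted p = 1.07e-11) in 320 µM persister and -1.34 (SE 0.07, adjusted p = 1.81e-16) in 10 µM adapted cells. In 320 µM adapted cells BMP7 was at 0.0326 times control (log2 -4.94, SE 0.10, adjusted p = 2.09e-26), with 50 and 69 UMIs in sums of 2038 and 1846 cells. All 4 values stayed past the threshold under every alternative run. The 5 mesothelial markers, among which ITLN1 had no UMI in either condition, summed to 3.32 to 3.60 CPM in 320 µM adapted cells (2 above the floor), against 126 to 133 CPM in control cells (3 above it), and to 29.3 to 30.6 CPM in 10 µM adapted cells. The summed epithelial and serous markers were also lowest in 320 µM adapted cells. The part of either marker list in the BMP7 difference was not tested.

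By cell, a BMP7 UMI was found in 0.941% and 0.765% of thinned 320 µM adapted cells, against 27.6% (25.9 to 29.4) and 28.6% (26.7 to 30.5) of control cells, with unthinned shares of 2.36% and 3.58%, against 58.4% and 62.5%. Cells of all conditions shared droplet runs in a pool, so the 320 µM adapted share is also the most that free BMP7 RNA can have given there. A BMP4 UMI was found in 15.6% (14.0 to 17.4) and 16.8% (15.1 to 18.8) of thinned 10 µM adapted cells, against 2.64% and 3.04% of control cells, and unthinned in 30.3% and 36.3%, against 7.52% and 11.04%. In thinned 10 µM adapted cells, BMP7 was present in 5.34% and 6.46% of cells with a BMP4 UMI and in 10.4% and 10.9% of those without.

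**Figure D3:**
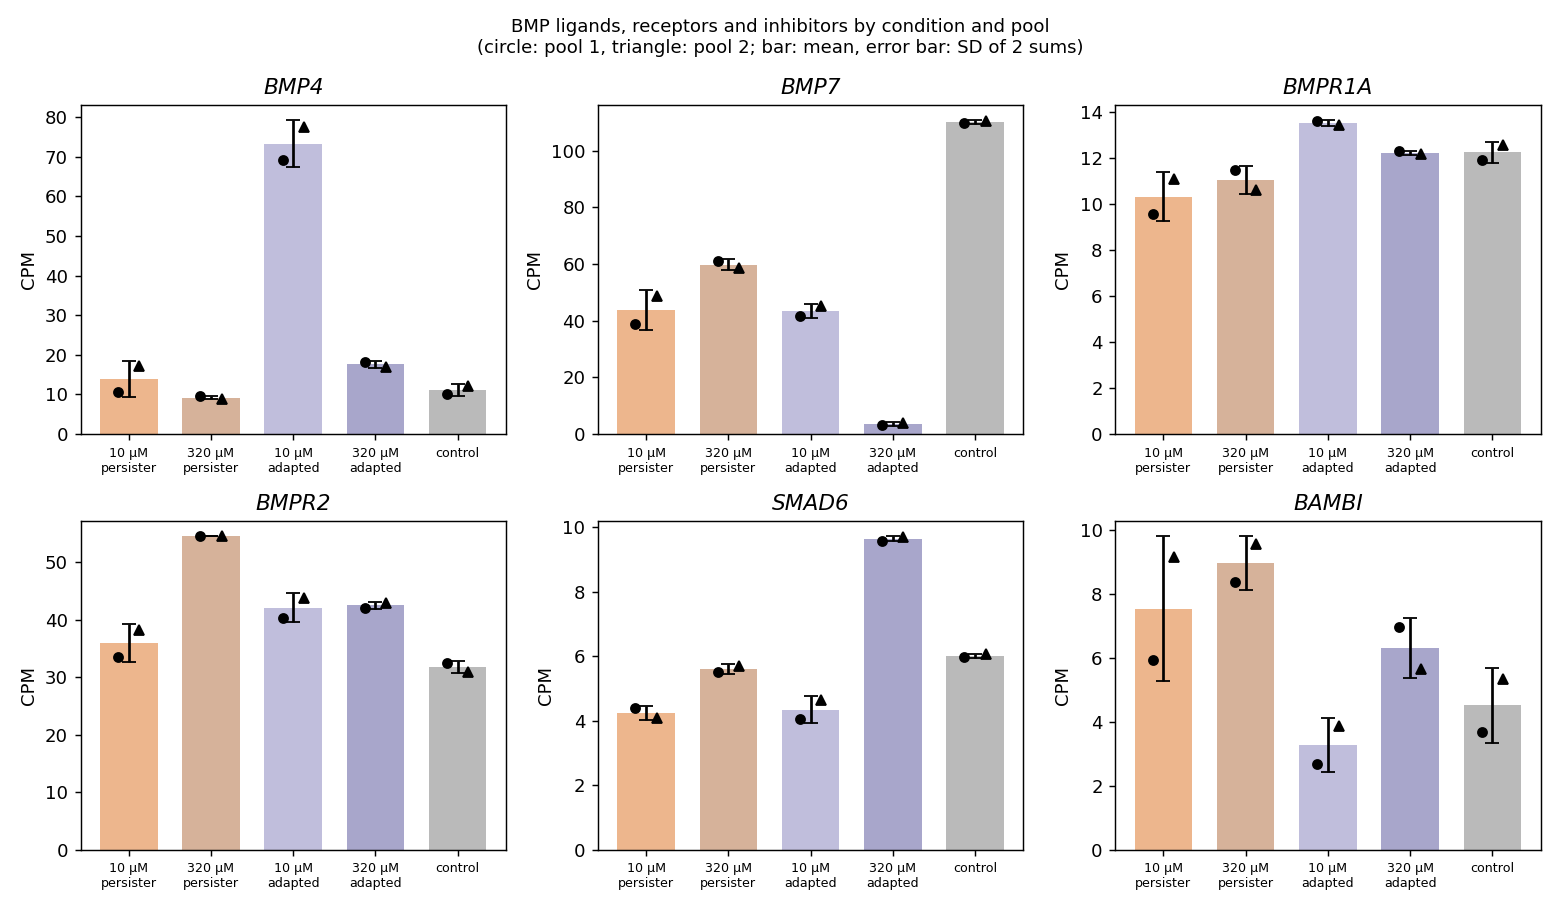
CPM (y axes, linear from 0, scaled separately) of the ligands BMP4 and BMP7, the receptors BMPR1A and BMPR2 and the inhibitors SMAD6 and BAMBI in the 5 conditions; circles and triangles are pool 1 and pool 2, bars the mean and error bars the SD of 2 sums. BMP4 stands at 73.3 ± 5.93 CPM in 10 µM adapted cells, against 11.04 ± 1.48 in control cells, and BMP7 at 3.57 ± 0.619 CPM in 320 µM adapted cells, against 110 ± 0.587 in control cells.

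The 10 µM adapted population was mixed in these genes. COL1A1, a fibrillar collagen on the fibroblast marker list, was at 92.2 ± 1.99 CPM in 10 µM adapted cells and 1.04 ± 0.214 CPM in control cells (SD, n = 2). COL1A2, which pairs with it in type I collagen, had 1 UMI in all 10 µM adapted cells and 0 in control cells. A COL1A1 UMI was found in 281 and 249 thinned 10 µM adapted cells, 15.6% and 15.9% of them. The split by that UMI was chosen after seeing the data and is a description in CPM without scaling factors. BMP4 stood at 152 and 158 such CPM in COL1A1-positive cells, against 52.5 and 61.6 in COL1A1-negative cells of the same condition. BMP7 went the other way, with 7.57 and 6.34 in positive cells, against 45.4 and 50.02 in negative cells. ID4 stood at 6.23 and 5.88 in positive cells, against 27.6 and 28.4 in negative cells. Both pools thus gave the same order for the ligands and for ID4.

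ID2 had 17.8 and 25.3 such CPM in COL1A1-positive cells, against 65.6 and 67.1 in negative cells, and ID1 had 963 and 1081, against 1480 and 1570. ID3 differed little, with 422 and 542 in positive cells, against 481 and 551 in negative cells. BMPR2 had 45.9 and 52.0, against 37.6 and 41.0, and BAMBI 4.45 and 8.15, against 2.29 and 3.06. Without COL1A1-positive cells, BMP4 in 10 µM adapted cells was still 5.15 and 5.07 times its level in COL1A1-negative control cells, and ID4 and BMP7 were 0.409 and 0.399 times and 0.408 and 0.444 times theirs. The differences from control in these 3 genes were thus present in cells without a detected COL1A1 UMI. Lack of a UMI after thinning does not mean that a cell lacked COL1A1 RNA. Whether COL1A1-positive cells belong to another cell type was not tested. A like split was made, also after seeing the data, by CXCL10, an interferon-induced chemokine, in 10 µM persister cells, of which 27.8% and 33.2% had a CXCL10 UMI. ID1 stood at 838 and 765 in CXCL10-positive cells, against 686 and 623 in negative cells, and BMP7 at 30.6 and 41.3, against 46.3 and 60.1. By SOX17, a factor of the serous lineage, BMP4 in control cells stood at 7.43 and 9.97 in positive cells, against 13.1 and 15.7 in negative cells. In 320 µM persister cells the values were close, at 9.49 and 8.82 in positive cells, against 10.4 and 9.51 in negative cells. The order was the other way in 10 µM adapted cells, with 72.8 and 90.1, against 66.5 and 74.3. In 10 µM persister cells BMP4 stood at 13.4 and 21.6 in positive cells, against 11.3 and 17.5 in negative cells. BMP4 had only 41 and 71 UMIs in the whole 10 µM persister sums, so no order is read from the split there. BMP7 by SOX17 stood at 69.5 and 64.9 in positive 10 µM adapted cells, against 38.9 and 42.9 in negative cells. In control and 320 µM persister cells the pools gave opposite orders for BMP7. In 10 µM persister cells BMP7 stood at 38.8 and 52.1 in positive cells, against 42.7 and 54.4 in negative cells.

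**Figure D4:**
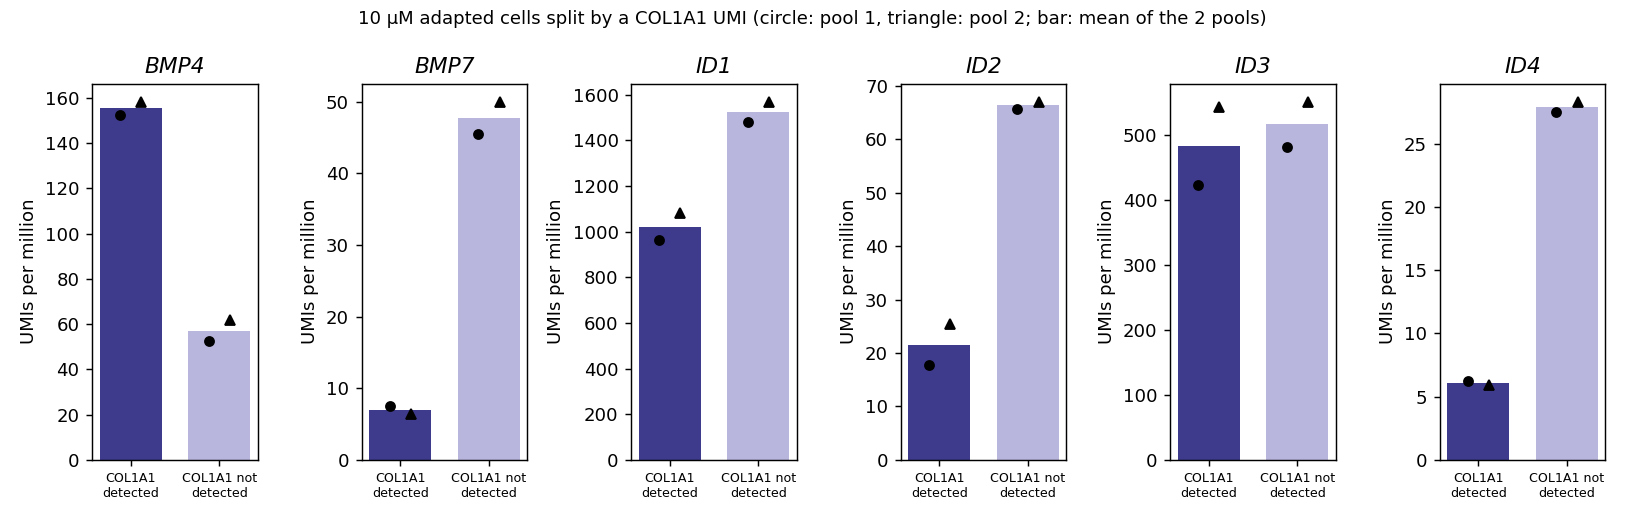
CPM without scaling factors (y axes, linear from 0, scaled separately) of BMP4, BMP7 and the ID genes in 10 µM adapted cells with (left) and without (right) a COL1A1 UMI after thinning; circles and triangles are pool 1 and pool 2 and bars their mean. BMP4 is higher in COL1A1-positive cells (152 and 158, against 52.5 and 61.6), BMP7, ID1, ID2 and ID4 are lower there in both pools, and ID3 spans similar values.

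Of the receptors, BMPR2 was higher than control in 3 of the 4 olaparib conditions and BMPR1A was called in none. BMPR1A, a type I receptor, had 9.54 and 11.1 CPM in 10 µM persister cells, 11.5 and 10.6 CPM in 320 µM persister cells, 13.6 and 13.4 CPM in 10 µM adapted cells, and 12.3 and 12.1 CPM in 320 µM adapted cells, against 11.9 and 12.6 CPM in control cells. No comparison with control was called, except in 320 µM adapted cells with library totals alone (-0.23, adjusted p = 0.043, otherwise -0.0029), and the log2 changes lay between -0.24 (SE 0.16, adjusted p = 0.202) in 10 µM persister cells and 0.14 (SE 0.10, adjusted p = 0.219) in 10 µM adapted cells.

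BMPR2, the type II receptor, had 33.5 and 38.2 CPM in 10 µM persister cells, 54.5 CPM in both 320 µM persister sums, 40.3 and 43.8 CPM in 10 µM adapted cells, and 42.1 and 42.9 CPM in 320 µM adapted cells, against 32.5 and 31.0 CPM in control cells. The 320 µM persister sums were above all others, and the adapted sums, which overlapped each other, were above control. The level was 1.72 times control in 320 µM persister cells (log2 0.78, SE 0.07, adjusted p = 2.53e-10), 1.32 times in 10 µM adapted cells (log2 0.41, SE 0.07, adjusted p = 8.19e-06) and 1.34 times in 320 µM adapted cells (log2 0.42, SE 0.07, adjusted p = 3.07e-06). In 10 µM persister cells it was 0.18 (SE 0.09, adjusted p = 0.106) and not called, except with library totals alone (0.30, adjusted p = 0.0080).

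Both inhibitors gave few UMIs, and their errors were wide. SMAD6, an inhibitory SMAD that BMP signalling itself induces, had 4.38 and 4.08 CPM in 10 µM persister cells, 5.50 and 5.70 CPM in 320 µM persister cells, 4.05 and 4.64 CPM in 10 µM adapted cells, and 9.58 and 9.70 CPM in 320 µM adapted cells, against 5.97 and 6.07 CPM in control cells. The 320 µM adapted sums were above all others, and both 10 µM conditions were below control and overlapped each other. The log2 change was 0.68 (SE 0.13, adjusted p = 2.04e-05) in 320 µM adapted cells, and 0.42 (adjusted p = 0.188) once all sums were thinned to the shallowest total. The value was -0.51 in 10 µM persister cells (SE 0.23, adjusted p = 0.071), and it was called among listed cells alone (-0.82, adjusted p = 0.034) and with thinned sums (-0.79, adjusted p = 0.029). In 10 µM adapted cells it was -0.47 (SE 0.15, adjusted p = 0.0073), and the call was lost under 4 alternatives, among them DESeq2 (adjusted p = 0.089), listed cells alone (-0.14, adjusted p = 0.606) and leaving out the first 10 µM adapted pool (adjusted p = 0.086).

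BAMBI, a transmembrane pseudoreceptor without a kinase domain that blocks type I receptors, had 5.93 and 9.13 CPM in 10 µM persister cells, 8.37 and 9.55 CPM in 320 µM persister cells, 2.68 and 3.87 CPM in 10 µM adapted cells, and 6.95 and 5.63 CPM in 320 µM adapted cells, against 3.67 and 5.34 CPM in control cells. Both persister conditions and 320 µM adapted cells were above control, and 10 µM adapted cells overlapped it. The smallest sum held 23 UMIs. The log2 change was 0.98 (SE 0.20, adjusted p = 2.16e-04) in 320 µM persister cells, a call lost with listed cells alone (0.67, adjusted p = 0.119). It was 0.75 (SE 0.27, adjusted p = 0.020) in 10 µM persister cells and 0.47 (SE 0.19, adjusted p = 0.026) in 320 µM adapted cells. The first of these was lost with listed cells alone (0.57, adjusted p = 0.265), without the second 10 µM persister pool (0.38, adjusted p = 0.442) and without the first control pool (0.51, adjusted p = 0.105), and the second under 6 alternatives, among them leaving out the first 320 µM adapted pool (0.31, adjusted p = 0.240) or the first control pool (0.23, adjusted p = 0.320). In 10 µM adapted cells it was -0.46 (SE 0.22, adjusted p = 0.064), and with the pool as a replicate block the adjusted p was 0.025. It was -0.75 (adjusted p = 0.023) without the second 10 µM adapted pool and -0.71 (adjusted p = 0.0079) without the first control pool.

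Adapted against persister cells, ID2, ID3 and ID4 went in opposite directions at the 2 doses. At 10 µM, 8 of the 10 genes were called (background 60.7%, 31.4% higher and 29.3% lower), 7 higher and 1 lower. At 320 µM 9 were called (background 66.7%, 34.1% higher and 32.6% lower), 3 higher and 6 lower. At 10 µM the adapted levels were 2.37 times persister for ID1 (log2 1.24, SE 0.05), 2.94 times for ID2 (1.55, SE 0.12), 2.45 times for ID3 (1.29, SE 0.07) and 1.57 times for ID4 (0.65, SE 0.13), with adjusted p of at most 5.71e-05. At 320 µM the adapted levels were 0.499 times persister for ID2 (log2 -1.004, SE 0.08), 0.638 times for ID3 (-0.65, SE 0.07) and 0.708 times for ID4 (-0.50, SE 0.07), with adjusted p of at most 9.58e-07. ID1 was 0.28 higher there (SE 0.05, adjusted p = 9.55e-06), and -0.0067 (adjusted p = 0.899) with library totals alone. The adapted and persister populations of a dose are different samples, so these values do not follow the same cells.

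BMP4 was higher in adapted than in persister cells at both doses, 5.26 times at 10 µM (log2 2.40, SE 0.14, adjusted p = 6.98e-13) and 1.91 times at 320 µM (log2 0.93, SE 0.15, adjusted p = 7.86e-06). BMP7 was 0.0601 times the persister level at 320 µM (log2 -4.06, SE 0.11, adjusted p = 6.14e-23), and at 10 µM the sums overlapped (-0.02, SE 0.10, adjusted p = 0.894). BMPR2 was 0.36 lower at 320 µM (SE 0.07, adjusted p = 8.52e-05), but -0.0061 (adjusted p = 0.961) among listed cells alone. At 10 µM BMPR2 was 0.23 higher (SE 0.09, adjusted p = 0.036) and BMPR1A 0.39 higher (SE 0.16, adjusted p = 0.037), calls lost under 5 and 9 alternatives. The BMPR2 call was lost without the second 10 µM adapted pool (adjusted p = 0.208) or the first 10 µM persister pool (0.382), and the BMPR1A call without any 1 of the 4 pools (0.064 to 0.292). SMAD6 was 0.78 higher at 320 µM (SE 0.16, adjusted p = 8.61e-05) and 0.04 at 10 µM (SE 0.25, adjusted p = 0.912). BAMBI was -1.21 at 10 µM (SE 0.29, adjusted p = 0.0010) and -0.51 at 320 µM (SE 0.20, adjusted p = 0.027), calls lost under 2 and 6 alternatives. The 10 µM call was lost without the second 10 µM persister pool (-0.85, adjusted p = 0.089), and the 320 µM call without the second 320 µM adapted pool (adjusted p = 0.177) or either 320 µM persister pool (0.052 and 0.181).

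The difference between doses was tested itself, as adapted minus persister at 320 µM minus the same at 10 µM. It was called for 7 of the 10 genes, all with negative values, where 49.3% of all tested genes were called, 23.4% positive and 25.9% negative. The values were -0.97 for ID1 (SE 0.07, adjusted p = 5.35e-12), -2.56 for ID2 (SE 0.15, adjusted p = 8.33e-12), -1.94 for ID3 (SE 0.10, adjusted p = 6.82e-10) and -1.15 for ID4 (SE 0.15, adjusted p = 1.08e-07). They were -1.46 for BMP4 (SE 0.22, adjusted p = 8.11e-06), -4.04 for BMP7 (SE 0.15, adjusted p = 1.61e-19) and -0.59 for BMPR2 (SE 0.12, adjusted p = 1.22e-04). SMAD6 at 0.74 (SE 0.31, adjusted p = 0.051), BAMBI at 0.70 (SE 0.35, adjusted p = 0.102) and BMPR1A at -0.24 (SE 0.20, adjusted p = 0.359) were not called. SMAD6 was called, with a positive value, with only the compared sums (0.76, adjusted p = 0.049) and without the second 10 µM adapted pool (0.84, adjusted p = 0.044). BAMBI was called, also positive, without the filter on low counts (0.72, adjusted p = 0.043), without the second 10 µM adapted pool (0.98, adjusted p = 0.038) and without the first 10 µM persister pool (0.96, adjusted p = 0.045). Across the alternatives 6 to 9 of the 10 genes were called.

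Between doses, 7 of the 10 genes were called among persister cells at 320 µM against 10 µM (background 49.7%, 25.3% higher and 24.4% lower), 6 higher and 1 lower. All 4 ID genes were higher at 320 µM, ID1 by 1.08 (SE 0.05), ID2 by 2.67 (SE 0.12), ID3 by 1.38 (SE 0.07) and ID4 by 1.99 (SE 0.12), with adjusted p of at most 1.13e-09. BMP7 was 0.45 higher (SE 0.10, adjusted p = 2.68e-04), BMPR2 0.60 higher (SE 0.09, adjusted p = 3.94e-06) and BMP4 0.60 lower (-0.60, SE 0.20, adjusted p = 0.018). The BMP4 call was lost without the second 10 µM persister pool (-0.20, adjusted p = 0.570), without the second 320 µM persister pool (-0.54, adjusted p = 0.095), and under 2 other alternatives.

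Among adapted cells, 7 were called at 320 µM against 10 µM (background 65.8%, 33.4% higher and 32.4% lower), 4 higher and 3 lower. BMP4 was 0.240 times (log2 -2.06, SE 0.10, adjusted p = 1.26e-14) and BMP7 0.0829 times (log2 -3.59, SE 0.11, adjusted p = 1.39e-21) the 10 µM level. ID4 was 0.84 higher (SE 0.08, adjusted p = 1.47e-10), ID3 changed by -0.57 (SE 0.06, adjusted p = 3.19e-06), SMAD6 was 1.15 higher (SE 0.15, adjusted p = 6.47e-08) and BAMBI 0.94 higher (SE 0.22, adjusted p = 5.78e-04). ID1 was 0.11 higher (SE 0.05, adjusted p = 0.032), and -0.04 (adjusted p = 0.386) with library totals alone. Its call was lost under 6 alternatives, among them leaving out the first 10 µM adapted pool (adjusted p = 0.264) or the second 320 µM adapted pool (0.236).

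ID1 was lower in cells outside the deposited g1 list than in listed cells of every condition. The list, which holds 7762 of the cells (56.2%) and is deposited with no stated reason, was poor in MKI67, a proliferation marker, whose level outside the list was 236 ± 1.90 CPM, against 10.2 ± 0.895 CPM in listed cells among control cells (SD, n = 2). Outside the list were 24.7% and 24.0% of 10 µM persister cells, 21.3% and 25.1% of 320 µM persister cells, 37.1% and 33.0% of 10 µM adapted cells and 46.1% and 44.9% of 320 µM adapted cells, against 57.7% and 56.5% of control cells. The comparison was fitted on 20 sums and 12892 genes with edgeR. In 10 µM persister cells 1 of the 10 genes was called, lower outside the list (background 18.2%, 8.49% higher and 9.66% lower). In 320 µM persister cells 5 were called, 2 higher and 3 lower (background 35%, 18.2% higher and 16.8% lower). In 10 µM adapted cells 7 were called, all lower (background 27.3%, 13.8% higher and 13.6% lower). In 320 µM adapted cells 5 were called, all lower (background 29.9%, 15.1% higher and 14.8% lower). In control cells 3 were called, all lower (background 24.6%, 14.1% higher and 10.4% lower). In control cells the pool as a replicate block gave 5. Without the first 10 µM adapted pool the count there was 4, and library totals alone gave 4 in 10 µM adapted and 2 in 320 µM adapted cells.

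ID1 stood at 872 ± 45.6 CPM outside the list and 1573 ± 60.3 CPM in listed cells among 320 µM persister cells (log2 -0.85, SE 0.05, adjusted p = 2.15e-21). The values were -0.63 (SE 0.05) in 10 µM adapted, -0.33 (SE 0.06) in 10 µM persister, -0.29 (SE 0.05) in 320 µM adapted and -0.37 (SE 0.05) in control cells, with adjusted p of at most 3.42e-05. With library totals alone the 320 µM adapted value was -0.08 (adjusted p = 0.218). ID4 was lower outside the list in 320 µM persister (-0.45, SE 0.11), 10 µM adapted (-0.72, SE 0.11), 320 µM adapted (-0.41, SE 0.09) and control cells (-0.36, SE 0.08), and 0.05 (SE 0.27, adjusted p = 0.937) in 10 µM persister cells. Library totals alone removed the ID4 call in 320 µM persister (-0.23, adjusted p = 0.090) and 320 µM adapted cells (-0.20, adjusted p = 0.076).

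ID3 was lower outside the list in 320 µM persister (-0.70, SE 0.10, adjusted p = 8.30e-05), 10 µM adapted (-0.49, SE 0.09, adjusted p = 0.0013) and 320 µM adapted cells (-0.51, SE 0.10, adjusted p = 8.54e-04). In control cells it was -0.04 (SE 0.09, adjusted p = 0.818), and whether the conditions differ in this was not tested. ID2 was lower outside the list in 10 µM adapted cells, at 41.7 ± 2.47 CPM, against 78.8 ± 2.64 CPM in listed cells (log2 -0.92, SE 0.10, adjusted p = 2.05e-09). In 320 µM persister cells, BMPR2 was 0.57 higher outside the list (SE 0.11, adjusted p = 1.63e-05). BAMBI was 0.98 higher there (SE 0.30, adjusted p = 0.011), and 0.68 without the second pool. BMP4 was lower outside the list in 320 µM adapted cells (-0.85, SE 0.15, adjusted p = 9.59e-06), and -0.53 without the second pool. In control cells BMP4 was at -0.54 (SE 0.16, adjusted p = 0.0073). Also lower outside the list were BMP7 (-0.30), BMPR2 (-0.29) and SMAD6 (-0.68) in 10 µM adapted and BMPR2 (-0.27) in 320 µM adapted cells. Library totals alone removed these last calls.

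**Figure D5:**
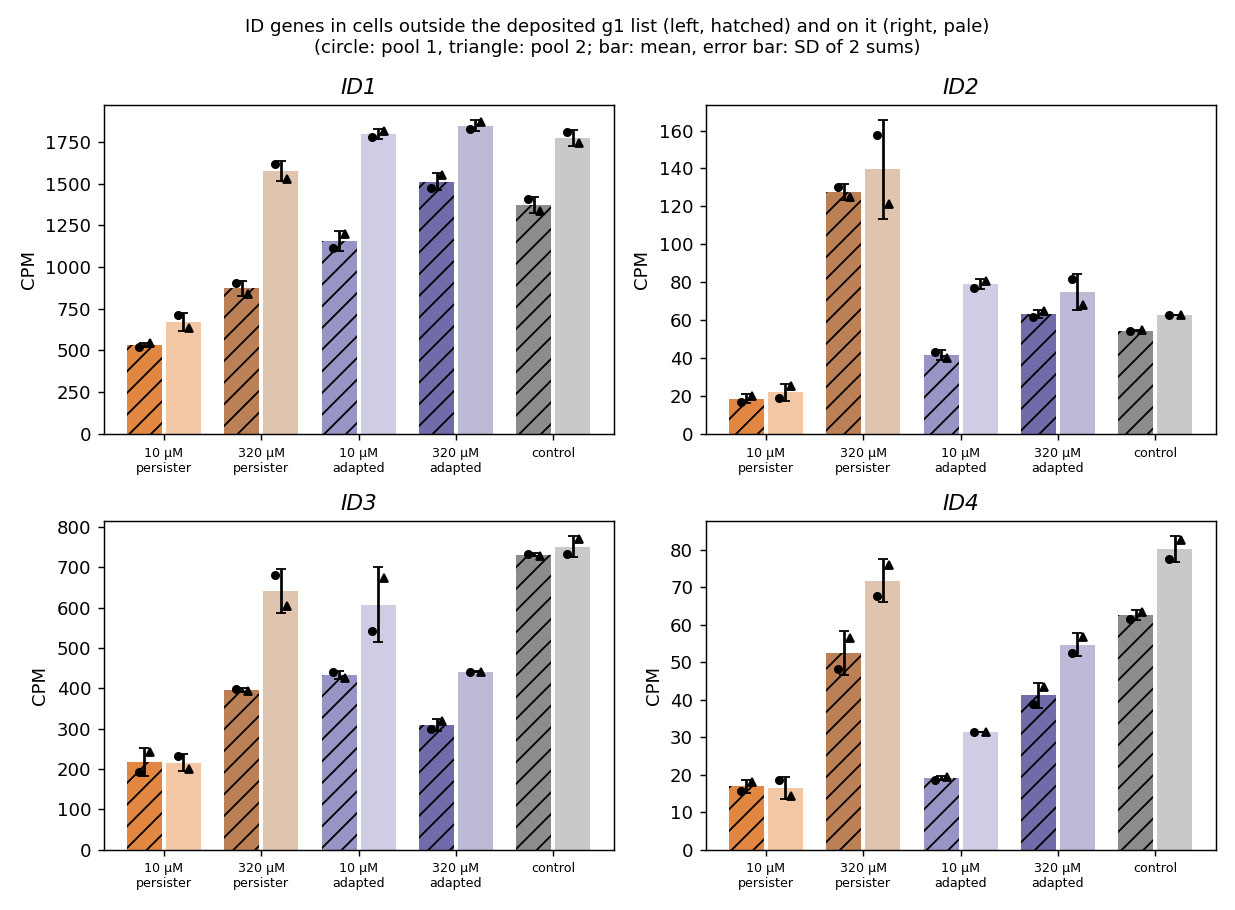
CPM (y axes, linear from 0, scaled separately) of the ID genes in cells outside the g1 list (left bar of each pair, hatched) and on it (right bar, pale) for the 5 conditions; circles and triangles are pool 1 and pool 2, bars the mean and error bars the SD of 2 sums. ID1 is lower outside the list in every condition, with the widest gap in 320 µM persister cells (872 against 1573 CPM) and the narrowest on the log2 scale in 320 µM adapted cells (1513 against 1849 CPM), while ID3 is at 731 and 751 CPM in control cells.

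Because the conditions differ in the share of listed cells, the 10 genes were also compared with control among listed cells alone. In 10 µM persister cells the ID values were -1.39 for ID1, -1.50 for ID2, -1.79 for ID3 and -2.29 for ID4, all called. ID2 in 320 µM persister cells was 1.17, BMP4 in 10 µM adapted cells 2.42 and BMP7 in 320 µM adapted cells -4.88, all called.

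The rest of the pathway was read from 7 lists of 74 genes, of which 56 passed the filter. Against control, 16 of the 56 were higher and 17 lower in 10 µM persister cells (58.9% called, where 56.6% of all tested genes were), 16 and 16 in 320 µM persister cells (57.1%, background 54.6%), 25 and 15 in 10 µM adapted cells (71.4%, background 67.1%) and 27 and 19 in 320 µM adapted cells (82.1%, background 74.5%). These shares were near the background, and the same backgrounds apply to the counts of each list. Of the 12 further BMP ligands 4 passed, of which 0 were higher and 1 lower in 10 µM persister cells, 1 and 0 in 320 µM persister cells, 1 and 1 in 10 µM adapted cells and 3 and 1 in 320 µM adapted cells. The ligands BMP8A, BMP10, BMP15 and GDF2 had no UMI in any sum. Among the 9 tested further receptors and co-receptors, 3 were higher and 3 lower in 10 µM persister cells, 1 higher and 2 lower in 320 µM persister cells, 4 were higher and 2 lower in 10 µM adapted cells, and 4 higher and 3 lower in 320 µM adapted cells, than in control cells. ENG (endoglin), a co-receptor of the family best known from endothelium, was at 59.4 ± 2.56 CPM in 10 µM adapted cells and 49.99 ± 3.46 CPM in 320 µM adapted cells, against 1.43 ± 0.142 CPM in control cells (log2 5.37 and 5.12). The endothelial markers in these cells summed to at most 0.849 CPM.

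Of the 4 SMAD transducers, 0 were higher and 1 lower in 10 µM persister cells, 1 and 1 in 320 µM persister cells, 0 and 1 in 10 µM adapted cells and 2 and 2 in 320 µM adapted cells. SMAD1 was at 10.4 ± 0.738 CPM in 10 µM adapted cells, against 20.4 CPM in control cells (log2 -0.97, SE 0.10, adjusted p = 6.16e-10). It was also lower in 320 µM adapted cells, at 9.42 CPM (log2 -1.11, SE 0.10, adjusted p = 2.49e-11). In 320 µM persister cells it was at 14.0 CPM (log2 -0.54, SE 0.11, adjusted p = 7.00e-05), and in 10 µM persister cells at 23.7 CPM. SMAD5 fell to 39.8 CPM in 10 µM persister cells (log2 -0.71, SE 0.08, adjusted p = 5.95e-09) and rose to 97.4 CPM in 320 µM adapted cells (log2 0.58, SE 0.06, adjusted p = 1.76e-10), against 65.1 CPM in control cells.

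Of 11 tested secreted antagonists, which bind BMP ligands outside the cell, 3 were higher and 4 lower in 10 µM persister cells, 2 and 4 in 320 µM persister cells, 5 and 2 in 10 µM adapted cells and 5 and 3 in 320 µM adapted cells. CHRDL1, a chordin-like antagonist, was 1.73 higher at 10 µM (SE 0.10) and 1.79 higher at 320 µM (SE 0.10) in adapted cells, with adjusted p of at most 3.18e-15. NBL1, a DAN-family antagonist, was 1.52 higher (SE 0.16, adjusted p = 1.58e-09) and TWSG1, which modulates chordin, changed by -1.20 (SE 0.15, adjusted p = 1.52e-07) in 10 µM persister cells.

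Of the 9 intracellular inhibitors, 2 were higher and 2 lower in 10 µM persister cells, 4 and 3 in 320 µM persister cells, 5 and 3 in 10 µM adapted cells and 3 and 3 in 320 µM adapted cells. SKIL, a corepressor of SMADs, was 1.01 higher in 10 µM persister cells (SE 0.11, adjusted p = 4.11e-09) and 1.21 higher in 10 µM adapted cells (SE 0.08, adjusted p = 1.05e-13).

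Other known BMP target genes moved in both directions. Of 12, all tested, 5 were higher and 2 lower in 10 µM persister cells, in which all 4 ID genes were lower, and the median log2 change of the 12 was 0.33. In 320 µM persister cells 5 were higher and 2 lower, and in 10 µM adapted and 320 µM adapted cells 8 were higher and 3 lower. DLX2, a homeobox factor, was at 20.7 ± 2.88 CPM in 10 µM adapted cells and 38.8 ± 2.40 CPM in 320 µM adapted cells, against 3.31 ± 0.362 CPM in control cells (log2 2.64 and 3.55). GATA2, a zinc finger factor, was at 11.3 CPM in 320 µM adapted cells, against 31.1 CPM in control cells (log2 -1.46, SE 0.08, adjusted p = 1.49e-15).

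The bHLH list, of factors that can pair with ID proteins or share their targets, had 7 tested genes of 12, with 3 higher and 4 lower in 10 µM persister cells, 2 and 4 in 320 µM persister cells, 2 and 3 in 10 µM adapted cells and 2 and 4 in 320 µM adapted cells. BHLHE41, a transcriptional repressor linked to circadian control, was at 235 ± 27.0 CPM in 10 µM persister cells, 145 ± 2.59 in 320 µM persister cells, 28.3 ± 0.887 in 10 µM adapted cells and 43.0 ± 0.551 in 320 µM adapted cells, against 125 ± 0.429 CPM in control cells. Its relative BHLHE40 was at 58.2 ± 0.681 CPM in 320 µM adapted cells, against 5.61 ± 0.196 CPM in control cells (log2 3.37, SE 0.12, adjusted p = 6.76e-17). TCF4, an E protein and a direct partner of ID proteins, was lower than control in all 4 olaparib conditions, by values from -0.72 (SE 0.08) in 10 µM adapted cells to -1.33 (SE 0.10) in 320 µM persister cells. TCF12, another E protein, changed by -0.70 (SE 0.12) in 10 µM persister and -0.46 (SE 0.10) in 320 µM persister cells.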

How the data were processed

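The deposited matrix holds raw UMI counts per gene and cell, not normalized by the authors as far as the values show. Per the labels' protocols, cells were hashed with TotalSeq-A antibodies and run on the 10x Genomics 3′ v3.1 chemistry. Cell Ranger 3.1, Seurat and hg38/GRCh38 are named in the submitters' processing notes with no role, and what was set for counting, demultiplexing or doublets is not given in the sources used here. No doublet caller was run. Per the labels, the 10 samples are 8 gene expression and 2 hashtag libraries of 2 mixed pools, and a cell was assigned to condition and pool by the ending of its name in the matrix. The deposited g1 table gives cell names alone, matched to the matrix.

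Counts were summed by condition and pool, filtered with filterByExpr and scaled by trimmed mean of M-values (factors 0.869 to 1.11). They were tested by robust quasi-likelihood in edgeR 4.0.16 (R 4.3.3), with 1 mean per condition and 5 residual degrees of freedom. The square root of the dispersion, the variation between pools of a condition beyond counting error, was 4.39% and may be technical. The fit was tested on simulated data first. Cells were thinned, and sequences read, in Python 3.11.15. With 2 sums against 2, exact permutation gives no two-sided p below 0.333. The pools pair the sums, since every condition was mixed into each pool, and pool differences of 10 condition pairs correlated at 0.253 to 0.474 over 5444 genes. Alternatives were DESeq2 1.42.0, library totals, no filter, the pool as a replicate block, the compared sums alone, thinned sums, listed cells alone and leaving out each pool.

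The 10 genes and the lists were chosen with earlier results of these data known. The 10 are always named. From each list and comparison, called genes were eligible by name in order of p, 3 at most, if the higher condition reached 20 CPM, and list genes at the floor in every sum. COL1A1, COL1A2, CXCL10 and SOX17 were named after their values were seen. MKI67, EPCAM and PAX8 served as checks.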

Additional observations from a re-analysis of the deposited data

Results flagged for a closer look

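For 7 of the 10 genes the difference between adapted and persister cells changed with dose by a test of that difference itself, adapted minus persister at 320 µM minus the same at 10 µM, in edgeR's fit over 13330 genes. The values on the log2 scale were -0.97 for ID1, -2.56 for ID2, -1.94 for ID3, -1.15 for ID4, -1.46 for BMP4, -4.04 for BMP7 and -0.59 for BMPR2. Of all tested genes 49.3% were called in this comparison. Except for BMPR2, which was -0.30 (adjusted p = 0.094) among listed cells alone, these calls were kept under every alternative run. With 2 sums per condition no sum could be compared with the spread of its own group.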

How the results depend on the processing

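Of 140 tested values of the 10 genes 86 were called, and 57 of these stayed called with the same direction under every alternative that could be run. The other 29 lost the threshold under at least 1 alternative. The 4 ID genes and BMP7 in 10 µM persister cells, ID2 and BMPR2 in 320 µM persister cells, BMP4 and ID4 in both adapted populations, ID3 in 320 µM adapted cells and BMP7 throughout were among the 57 against control. With library totals alone in place of scaling factors, ID1 turned from higher to lower in 320 µM adapted cells against control (-0.11), against 320 µM persister cells (-0.0067) and against 10 µM adapted cells (-0.044). That scaling moved the median log2 change of all genes to -0.22 in 320 µM adapted against control cells, -0.25 in 320 µM adapted against persister cells, -0.13 in 10 µM adapted against persister cells, -0.14 in 320 µM against 10 µM adapted cells and -0.13 in the difference between doses. Genes called higher and lower became 3726 and 6233 in the first (otherwise 5012 and 4918), 3027 and 5995 in the second (4548 and 4343), 3137 and 4920 in the third (4190 and 3904), 3230 and 5391 in the fourth (4449 and 4317) and 2707 and 3926 in the difference between doses (3124 and 3453). The balance turned in 10 µM persister against control cells, with 4346 higher and 3212 lower (3638 and 3909) and a median of 0.09. For cells outside the list it moved the median to 0.07, 0.21, 0.01 and 0.19 in 10 µM persister, 320 µM persister, 10 µM adapted and 320 µM adapted cells. Calls there became 1465 higher and 711 lower (otherwise 1095 and 1245), 3706 and 1098 (2344 and 2168), 2178 and 1282 (1778 and 1747) and 4073 and 841 (1949 and 1907), and the numbers of the 10 genes called became 4 in 10 µM adapted and 2 in 320 µM adapted cells.

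The pool as a replicate block, used because the pools pair the sums, gave 5 of the 10 genes in control cells outside against on the list, where the fit without it gave 3. It changed the single calls of BAMBI in 10 µM adapted against control cells (adjusted p = 0.025), ID2 outside the list in 320 µM adapted cells (adjusted p = 0.040), and BMP7 and BMPR2 outside the list in control cells (adjusted p = 0.038 and 0.049), and no other. Leaving out 1 pool of a condition, with the lone sum assumed to vary like the others, gave 4 to 5 called genes outside the list in 10 µM adapted cells, 4 in 320 µM adapted cells, 4 to 5 in 320 µM persister cells and 2 in control cells. Each pair of a value and an alternative was also counted, so that a value can count more than once. In 30 such pairs the value passed the threshold that it otherwise missed. In 49 other pairs its sign moved without a call on either side. The share of cells with a UMI depends on depth. Each share was compared with cells thinned to 2000 UMIs and with no thinning. In 96 of these 100 comparisons it moved by more than the spread between pools. SMAD6 and BAMBI rested on 17 to 167 UMIs per sum, which limits their precision, and no cause of a lost call was tested.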
